A study of Bos taurus with 30 samples.

Results

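Expression of 7 genes that make, carry, degrade or sense prostaglandins (PTGFR, PTGER4, PTGS2, PTGES, PTGIS, HPGD and SLCO2A1) was followed in the bovine corpus luteum, an ovarian gland built from the ovulated follicle that produces progesterone. They were chosen by gene symbol in the platform annotation and were represented by 12 of the 24016 probe sets tested, or 7 of 9155 named genes. Tissue came from 30 Angus crossbred heifers, with 1 Affymetrix GeneChip Bovine Genome Array per heifer. Heifers on day 11 of the estrous cycle were sampled at 0, 4 or 24 h, and heifers on day 4 at the same times, with 5 heifers in each of the 6 groups. The 4 h and 24 h groups had received prostaglandin F2α (PGF2α, written PG in the labels), and the 0 h groups had received saline and served as controls. The groups held no saline heifers at 4 or 24 h, so PGF2α and the time since injection cannot be told apart. The labels describe a completely random factorial design, which compares the response to PGF2α between an early and a mid-cycle gland.

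Prostaglandins are lipid signals made from arachidonic acid. The cyclooxygenases PTGS1 and PTGS2 make the shared precursor, terminal synthases such as PTGES and PTGIS turn it into prostaglandin E2 (PGE2) and prostacyclin, and each product acts through its own receptors on the cell surface. Removal depends on SLCO2A1, a carrier that moves prostaglandins across the plasma membrane, and on HPGD, the enzyme that starts their breakdown inside cells. In ruminants PGF2α from the uterus ends the life of the mature corpus luteum, whereas the early corpus luteum is known to resist a single dose.

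Values are the deposited log2 signals, and a difference of 1 log2 unit is a 2-fold difference. Differences were tested with limma on all 30 arrays, with Benjamini-Hochberg adjustment of the p-values over all 24016 probe sets, and were called at an adjusted p under 0.05. Where a gene had several probe sets, the brightest represented it and the others are given beside it. Array medians lay between 6.01 and 6.16, and the median SD within groups over probe sets was 0.198. Of the 30 arrays, 29 lay nearest the mean of their own group, and day 4, 24 h replicate 1 lay nearest the day 4, 0 h mean. In day 11, 4 h replicate 1 the 3′ minus 5′ difference of the EF1A control probe sets was -1.40, against -2.46 to -2.28 in the other arrays of its group. That of GAPDH was lower there than in the others (0.09, against 0.35 to 0.61), and that of actin lay within their range (2.04). This array also had the lowest weight of the 30 when limma weighted the arrays (0.318). The steroidogenic markers STAR, CYP11A1 and HSD3B1 stood at or above the 97.9 percentile of probe sets in every group. The luteinizing hormone receptor LHCGR stood between the 44.6 and the 74.2 percentile.

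At 4 h after PGF2α, 4 of the 7 genes were called on day 11 and 3 on day 4. On day 11 PTGER4 and PTGIS rose and PTGFR and HPGD fell, where 23.2% of all genes tested were called in either direction. On day 4 PTGER4 and PTGS2 rose and PTGFR fell, where 5.28% of all genes were called. At 24 h the days parted: on day 11 PTGER4 was higher and PTGFR, HPGD and SLCO2A1 were lower than at 0 h, 4 of 7 against a background of 37.9%. On day 4 none of the 7 was called at 24 h by limma, 1 had an unadjusted p under 0.05, and the background was 7.76%. The share called on day 11 at 24 h was thus not far above that of all genes. The 7 genes were chosen with earlier results of these data known, so these shares cannot show an excess over the background.

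**Figure D1:**
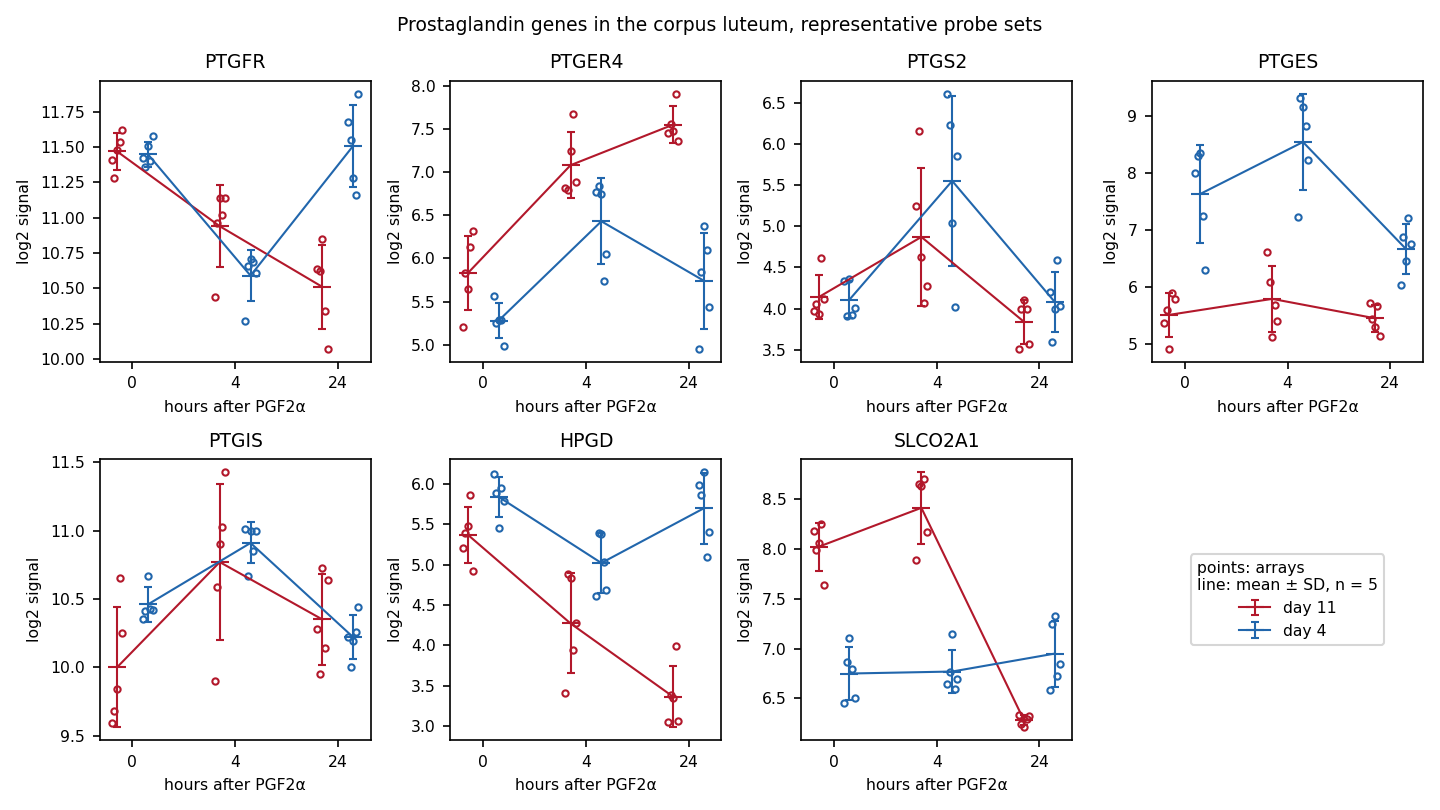
Log2 signal of the 7 genes (brightest probe set of each) on each of the 30 arrays, by day of the cycle and hours after PGF2α; each point is 1 heifer and the bars are the group mean and SD. SLCO2A1 on day 11 at 24 h lies between 6.21 and 6.33, and all day 11, 0 h arrays lie at 7.64 or above.

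PTGFR (Entrez Gene 282020) encodes the receptor for PGF2α itself. On day 11 its signal was 11.41, 11.28, 11.48, 11.54 and 11.62 at 0 h, 10.44, 10.96, 11.14, 11.02 and 11.14 at 4 h, and 10.64, 10.62, 10.85, 10.34 and 10.07 at 24 h. Both treated groups lay wholly below the 0 h group. On day 4 its signal was 11.42, 11.36, 11.51, 11.40 and 11.58 at 0 h, 10.27, 10.66, 10.71, 10.69 and 10.61 at 4 h, and 11.68, 11.55, 11.28, 11.16 and 11.88 at 24 h. The 4 h arrays of day 4 lay wholly below the others, and the 24 h arrays overlapped the 0 h arrays. PTGFR fell by 0.52 ± 0.14 (SE) at 4 h on day 11 (adjusted p = 0.00914) and by 0.87 ± 0.14 on day 4 (adjusted p = 3e-04). At 24 h it fell by 0.96 ± 0.14 on day 11 (adjusted p = 4.57e-06), and on day 4 the difference was 0.06 with a 95% interval of -0.23 to 0.35 (adjusted p = 0.913). The call at 4 h on day 11 was lost with array weights (adjusted p = 0.0534).

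The 24 h response of PTGFR differed between the days by -1.02 ± 0.20 (adjusted p = 0.000368), and 4 of the 7 genes were called in this interaction, where 29.8% of all genes were. In the order of group means, day 4 at 24 h (11.51 ± 0.29, SD, n = 5), day 11 at 0 h (11.47 ± 0.13) and day 4 at 0 h (11.45 ± 0.09) overlapped. Below them came day 11 at 4 h (10.94 ± 0.29), then day 4 at 4 h (10.59 ± 0.18) and day 11 at 24 h (10.51 ± 0.30), each overlapping its neighbour. Between 24 h and 4 h PTGFR was higher at 24 h on day 4, by 0.92 ± 0.14 (adjusted p = 4.79e-05), and lower at 24 h on day 11, by -0.44 ± 0.14 (adjusted p = 0.025). The days differed at 24 h by -1.0 ± 0.14 (adjusted p = 1.81e-06) and at 0 h the difference was 0.01 (95% interval -0.28 to 0.30). At 4 h it was 0.36 ± 0.14 (adjusted p = 0.0571), and the call turned on the setting. It was called under 6 of 18 alternatives, with an adjusted p down to 0.00771 without day 11, 4 h replicate 1, whereas the mean of all 3 probe sets gave 0.01 (adjusted p = 0.972) and the other 2 probe sets differed by -0.23 (adjusted p = 0.518) and -0.10 (adjusted p = 0.778). The day 11 call between 24 h and 4 h was lost with the mean of all probe sets (adjusted p = 0.11), with the compared groups alone (adjusted p = 0.102) and when any of 5 single arrays was left out, with adjusted p up to 0.105 without day 11, 24 h replicate 5.

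The other 2 probe sets of PTGFR fell at 4 h as well, with 1 exception. The second brightest fell by 0.68 ± 0.22 on day 11 (adjusted p = 0.029) and by 1.03 ± 0.22 on day 4 (adjusted p = 0.00482). The dimmest fell by 0.72 ± 0.24 on day 11 (adjusted p = 0.0339), and on day 4 its difference of -0.81 ± 0.24 was not called (adjusted p = 0.0513). They parted at 24 h on day 11. The dimmest fell by 1.65 ± 0.24 (adjusted p = 3.78e-06), and the second brightest differed by -0.48 ± 0.22 (adjusted p = 0.105). This second probe set read 8.07, 7.17, 7.27, 6.64 and 6.43 on day 11 at 24 h, a wider spread than its 7.47, 7.52, 7.96, 7.44 and 7.59 at 0 h, and its 24 h interaction was -0.33 ± 0.31 (adjusted p = 0.526). Over the 30 arrays the brightest probe set correlated with the dimmest at r = 0.864 and with the second brightest at r = 0.782. Which transcript forms each probe set detects was not analysed here.

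PTGER4 (282331) encodes EP4, a PGE2 receptor that raises cyclic AMP. Its signal rose at 4 h on both days and stayed high at 24 h on day 11. On day 11 it was 5.21, 5.83, 5.64, 6.13 and 6.32 at 0 h, 6.82, 6.79, 7.25, 7.67 and 6.88 at 4 h, and 7.45, 7.56, 7.48, 7.91 and 7.36 at 24 h. Every treated array of day 11 exceeded every 0 h array. On day 4 it was 5.56, 5.25, 5.29, 5.29 and 4.99 at 0 h, 6.77, 6.84, 6.75, 5.74 and 6.05 at 4 h, and 4.95, 5.84, 6.38, 6.10 and 5.44 at 24 h. Here too the 4 h arrays lay wholly above the 0 h arrays, whereas the 24 h arrays overlapped both.

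The 4 h rise of PTGER4 was 1.25 ± 0.24 on day 11 (adjusted p = 0.000368) and 1.15 ± 0.24 on day 4 (adjusted p = 0.00387). Its 4 h interaction was 0.10, with a 95% interval of -0.59 to 0.80 (adjusted p = 0.958). At 24 h it was 1.73 ± 0.24 higher than at 0 h on day 11 (adjusted p = 1.73e-06), and on day 4 the difference was 0.46 ± 0.24 (adjusted p = 0.326). The 24 h interaction was 1.26 ± 0.34 (adjusted p = 0.00674). In order, the group means were 7.55 ± 0.21 on day 11 at 24 h, 7.08 ± 0.38 on day 11 at 4 h, 6.43 ± 0.50 on day 4 at 4 h, 5.83 ± 0.43 on day 11 at 0 h, 5.74 ± 0.56 on day 4 at 24 h and 5.28 ± 0.20 on day 4 at 0 h (SD, n = 5 each), and each group overlapped the next. PTGER4 was higher on day 11 than on day 4 at 24 h, by 1.81 ± 0.24 (adjusted p = 6.27e-07), with no overlap. At 4 h the day difference was 0.65 ± 0.24 (adjusted p = 0.039). Leaving out replicate 3 or 4 of day 11, or replicate 4 or 5 of day 4, ended the call (adjusted p up to 0.142). So did fitting the compared groups alone (adjusted p = 0.0626). At 0 h the day difference was 0.55 ± 0.24 (adjusted p = 0.0797). It was called without day 11, 0 h replicate 1 (adjusted p = 0.0277) and with the compared groups alone (adjusted p = 0.0395).

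**Figure D2:**
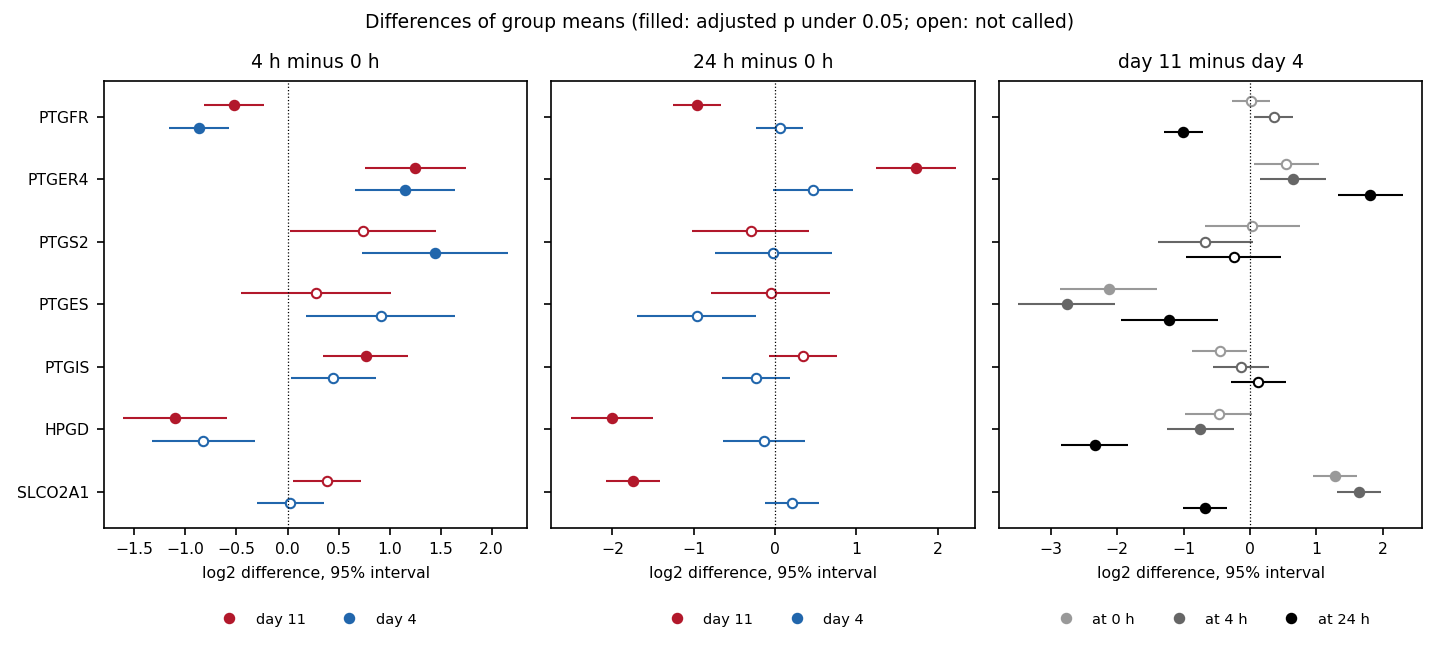
Differences of group means in log2 units with 95% intervals for the 7 genes, with 4 h minus 0 h and 24 h minus 0 h for day 11 and day 4, and day 11 minus day 4 at 0, 4 and 24 h; filled points were called and open points were not. At 24 h minus 0 h the called points are those of PTGFR, PTGER4, HPGD and SLCO2A1 on day 11.

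PTGS2 (282023), the inducible cyclooxygenase, rose at 4 h on day 4 and varied widely between the heifers sampled at 4 h on both days. On day 4 its signal was 6.61, 6.23, 5.04, 4.02 and 5.85 at 4 h, against 4.33, 3.91, 4.36, 3.92 and 4.01 at 0 h. Replicate 4 lay within the range of the 0 h arrays and the other 4 lay above it. On day 11 it was 5.25, 6.15, 4.63, 4.07 and 4.27 at 4 h, against 3.97, 4.06, 3.94, 4.61 and 4.12 at 0 h, and these groups overlapped. By 24 h the signals were 3.51, 4.00, 4.11, 3.99 and 3.57 on day 11 and 4.20, 3.59, 4.00, 4.59 and 4.03 on day 4, within or slightly outside the ranges at 0 h.

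The rise of PTGS2 on day 4 was 1.45 ± 0.35 (adjusted p = 0.013), and the difference on day 11 was 0.74 ± 0.35 (adjusted p = 0.155). A difference between the days was not shown, since the 4 h interaction was -0.71 with a 95% interval of -1.72 to 0.30 (adjusted p = 0.652). For all 7 genes together, limma called 0 of 7 in the 4 h interaction, none at an unadjusted p under 0.05, where 1.40% of all genes were called. The day 4 rise was lost without day 4, 4 h replicate 1 (adjusted p = 0.0666) and when limma was fitted to the compared groups alone (adjusted p = 0.0591), and the mean of all 3 probe sets gave a smaller rise of 0.63. Between 24 h and 4 h PTGS2 was lower at 24 h, by -1.47 ± 0.35 on day 4 (adjusted p = 0.00409) and by -1.04 ± 0.35 on day 11 (adjusted p = 0.0297). Leaving out replicate 1 or 2 at 4 h, or replicate 1 or 5 at 24 h, ended the day 11 call (adjusted p up to 0.126), as did the mean of all probe sets (-0.37, adjusted p = 0.108) and array weights (adjusted p = 0.0514). At 4 h the days differed by -0.68 ± 0.35 (adjusted p = 0.146), and this was called without day 11, 4 h replicate 2 (adjusted p = 0.0215) or day 4, 4 h replicate 4 (adjusted p = 0.00984).

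The PTGS2 signal was dim: its group means lay between the 21.4 and the 43.4 percentile of probe sets, and the files give no detection calls. The other 2 probe sets had group means between the 2.6 and the 11.5 percentile, and neither was called in any comparison. The second brightest read 3.44, 3.80, 2.57, 2.69 and 3.00 on day 4 at 4 h, against 2.62, 2.50, 2.55, 2.87 and 2.51 at 0 h (difference 0.49, adjusted p = 0.131). Over the 30 arrays it correlated with the brightest probe set at r = 0.796, whereas the dimmest did so at r = -0.286.

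PTGES (282019), an inducible synthase that makes PGE2, differed mainly by day of the cycle. At 0 h it was 5.37, 5.60, 4.92, 5.91 and 5.79 on day 11, against 8.0, 8.30, 8.35, 7.25 and 6.31 on day 4. At 4 h it was 6.62, 6.10, 5.14, 5.70 and 5.42 on day 11, against 7.23, 9.32, 9.16, 8.83 and 8.24 on day 4. At 24 h it was 5.73, 5.45, 5.31, 5.67 and 5.15 on day 11, against 6.05, 6.89, 6.46, 7.21 and 6.77 on day 4. At none of the 3 times did the days overlap.

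In these comparisons PTGES was lower on day 11 by -2.12 ± 0.36 at 0 h (4.36-fold, adjusted p = 2.79e-05), by -2.76 ± 0.36 at 4 h (6.76-fold, adjusted p = 9.71e-07) and by -1.22 ± 0.36 at 24 h (adjusted p = 0.0081). Between the days, 2 of the 7 genes were called at 0 h against a background of 44.5%, 4 at 4 h against 42.8%, and 5 at 24 h against 46.2%. Within day 4, PTGES was lower at 24 h than at 4 h, by -1.88 ± 0.36 with no overlap (adjusted p = 0.000513). Its day 4 differences from 0 h were 0.91 ± 0.36 at 4 h (adjusted p = 0.184) and -0.97 ± 0.36 at 24 h (adjusted p = 0.12). The first was called without day 4, 4 h replicate 1 (adjusted p = 0.0409). The second was called without day 4, 0 h replicate 5 (adjusted p = 0.022) and with array weights (adjusted p = 0.0219). On day 11 the differences from 0 h were 0.28 at 4 h (95% interval -0.45 to 1.01) and -0.06 at 24 h (95% interval -0.79 to 0.68). The group means ran from 8.55 ± 0.85 on day 4 at 4 h through 7.64 ± 0.86 on day 4 at 0 h, 6.68 ± 0.44 on day 4 at 24 h, 5.80 ± 0.58 on day 11 at 4 h and 5.52 ± 0.39 on day 11 at 0 h to 5.46 ± 0.24 on day 11 at 24 h (SD, n = 5 each). Among these neighbours, day 4 at 24 h and day 11 at 4 h overlapped, and so did the others.

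PTGIS (282021) encodes prostacyclin synthase, which is typical of vessel walls. On day 11 it was 9.90, 10.59, 10.90, 11.03 and 11.43 at 4 h, against 9.59, 9.68, 9.84, 10.65 and 10.25 at 0 h, a rise of 0.77 ± 0.20 (adjusted p = 0.00762) in groups that overlapped. On day 4 it was 11.01, 10.67, 11.00, 10.85 and 11.00 at 4 h, against 10.35, 10.41, 10.67, 10.43 and 10.42 at 0 h, a difference of 0.45 ± 0.20 (adjusted p = 0.283). On day 4, 4 of the 5 treated arrays exceeded every control and the fifth equalled the highest control to 2 decimals. At 24 h PTGIS was 10.28, 9.95, 10.73, 10.14 and 10.64 on day 11, within 0.35 ± 0.20 of the 0 h mean (adjusted p = 0.225), and on day 4, where its group mean was 10.22 ± 0.16 (SD, n = 5) and its highest array 10.44, the difference was -0.23 ± 0.20 (adjusted p = 0.65).

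Both 4 h results of PTGIS turned on the samples in the fit. With limma fitted to the compared groups alone, the day 11 rise was not called (adjusted p = 0.0967) and the day 4 difference was (adjusted p = 0.017). Within day 4, PTGIS was lower at 24 h than at 4 h by -0.68 ± 0.20, with no overlap (adjusted p = 0.0211, and 0.0618 without day 4, 24 h replicate 2). Between the days it differed by -0.45 ± 0.20 at 0 h (adjusted p = 0.0866), -0.14 at 4 h and 0.13 at 24 h. Without day 11, 0 h replicate 4 the day difference at 0 h was called (adjusted p = 0.0181). Within day 11 the difference between 24 h and 4 h was -0.42 ± 0.20 (adjusted p = 0.147). It was called without day 11, 4 h replicate 1 (adjusted p = 0.0102) and with array weights (adjusted p = 0.0352). The 6 group means spanned only 10.002 ± 0.441 on day 11 at 0 h to 10.91 ± 0.15 on day 4 at 4 h (SD, n = 5 each), with 10.77 ± 0.57, 10.46 ± 0.13, 10.35 ± 0.33 and 10.22 ± 0.16 on day 11 at 4 h, day 4 at 0 h, day 11 at 24 h and day 4 at 24 h between them, and each group overlapped the next.

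SLCO2A1 (282468) encodes the prostaglandin transporter. In the saline heifers it was 8.18, 7.99, 8.06, 8.25 and 7.64 on day 11, against 6.45, 6.87, 7.11, 6.80 and 6.50 on day 4, higher on day 11 by 1.28 ± 0.16 (2.42-fold, adjusted p = 5.36e-07). The days did not overlap. At 4 h it was 7.89, 8.65, 8.63, 8.70 and 8.17 on day 11, against 6.65, 6.77, 7.15, 6.60 and 6.70 on day 4, and the difference between the days was 1.64 ± 0.16 (adjusted p = 1.67e-08). At 24 h the order of the days turned round, with 6.33, 6.24, 6.21, 6.29 and 6.32 on day 11, against 6.59, 7.25, 7.33, 6.73 and 6.85 on day 4 (-0.67 ± 0.16, adjusted p = 0.00136). In this last pair, too, the groups did not overlap.

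The fall of SLCO2A1 on day 11 came between 4 h and 24 h. Its signal at 24 h was lower than at 0 h by -1.75 ± 0.16 (3.35-fold, adjusted p = 1.46e-09) and lower than at 4 h by -2.13 ± 0.16 (4.38-fold, adjusted p = 1.22e-10), each with no overlap. At 4 h the difference from 0 h on day 11 was 0.39 ± 0.16 (adjusted p = 0.0986), which was called without day 11, 4 h replicate 1 (adjusted p = 0.0217). On day 4 its differences from 0 h were 0.03 at 4 h (95% interval -0.30 to 0.36) and 0.21 at 24 h (95% interval -0.12 to 0.54). The 24 h interaction was -1.95 ± 0.23 (adjusted p = 2.72e-07). The SD of the day 11, 24 h arrays was 0.05, against 0.22 to 0.36 in the other groups. From high to low, the means were 8.41 ± 0.36 and 8.02 ± 0.24 on day 11 at 4 h and 0 h, which overlapped, then 6.95 ± 0.33, 6.77 ± 0.22 and 6.75 ± 0.27 on day 4 at 24, 4 and 0 h, which overlapped, and 6.28 ± 0.05 on day 11 at 24 h (SD, n = 5 each), which lay below every other array.

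HPGD (512259) encodes 15-hydroxyprostaglandin dehydrogenase, which inactivates PGE2 and PGF2α. On day 11 it was 5.20, 5.39, 5.48, 5.86 and 4.92 at 0 h, 3.41, 4.88, 4.83, 3.94 and 4.27 at 4 h, and 3.05, 3.38, 3.35, 3.99 and 3.06 at 24 h. Both treated groups lay below all 0 h arrays. On day 4 it was 6.13, 5.89, 5.45, 5.95 and 5.79 at 0 h, 4.61, 5.39, 5.38, 5.03 and 4.68 at 4 h, and 5.99, 5.86, 6.15, 5.10 and 5.41 at 24 h. The day 4 groups at 4 h and 0 h did not overlap either, and at 24 h they did.

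HPGD fell by 1.10 ± 0.25 at 4 h on day 11 (adjusted p = 0.00184) and dropped by 2.01 ± 0.25 at 24 h (4.02-fold, adjusted p = 2.43e-07). On day 4 the difference was -0.83 ± 0.25 at 4 h, just outside the threshold (adjusted p = 0.054), and -0.14 at 24 h (95% interval -0.65 to 0.37). The day 4, 4 h difference was called under 8 of its 18 alternatives, among them without day 4, 4 h replicate 2 (adjusted p = 0.0444) and without day 4, 0 h replicate 3 (adjusted p = 0.0482). The 24 h interaction was -1.87 ± 0.35 (adjusted p = 0.000195). Between the days HPGD was lower on day 11 at 24 h, by -2.34 ± 0.25 (5.06-fold, adjusted p = 1.39e-08), with no overlap. At 4 h the difference was -0.75 ± 0.25 (adjusted p = 0.0204), a call that ended when replicate 1 or 4 of day 11, or replicate 2 or 3 of day 4, was left out (adjusted p up to 0.0921). The call also ended with the mean of both probe sets (-0.36, adjusted p = 0.0743), with array weights (adjusted p = 0.0667) and with the compared groups alone (adjusted p = 0.0594). At 0 h the difference was -0.47 ± 0.25 (adjusted p = 0.151).

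In order, the HPGD means were 5.84 ± 0.25, 5.70 ± 0.44, 5.37 ± 0.35 and 5.02 ± 0.37 on day 4 at 0 h, day 4 at 24 h, day 11 at 0 h and day 4 at 4 h, followed by 4.27 ± 0.62 on day 11 at 4 h and 3.36 ± 0.38 on day 11 at 24 h (SD, n = 5 each), each overlapping the next. The day 11, 24 h mean stood at the 14.7 percentile of probe sets, and whether the dim end of the scale bears on the size of the fall was not tested. A dimmer probe set of HPGD fell at 24 h on day 11 by 0.50 ± 0.19 (adjusted p = 0.0399) and differed by -0.08 ± 0.19 at 4 h (adjusted p = 0.842). It read 3.49, 3.32, 3.06, 3.66 and 3.20 on day 11 at 24 h, against 3.59, 3.97, 3.81, 4.02 and 3.86 at 0 h, and its 24 h interaction was not called (-0.54 ± 0.26, adjusted p = 0.15). With the mean of both probe sets the fall at 24 h was 1.25. The probe sets correlated at r = 0.531 over the 30 arrays.

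**Figure D3:**
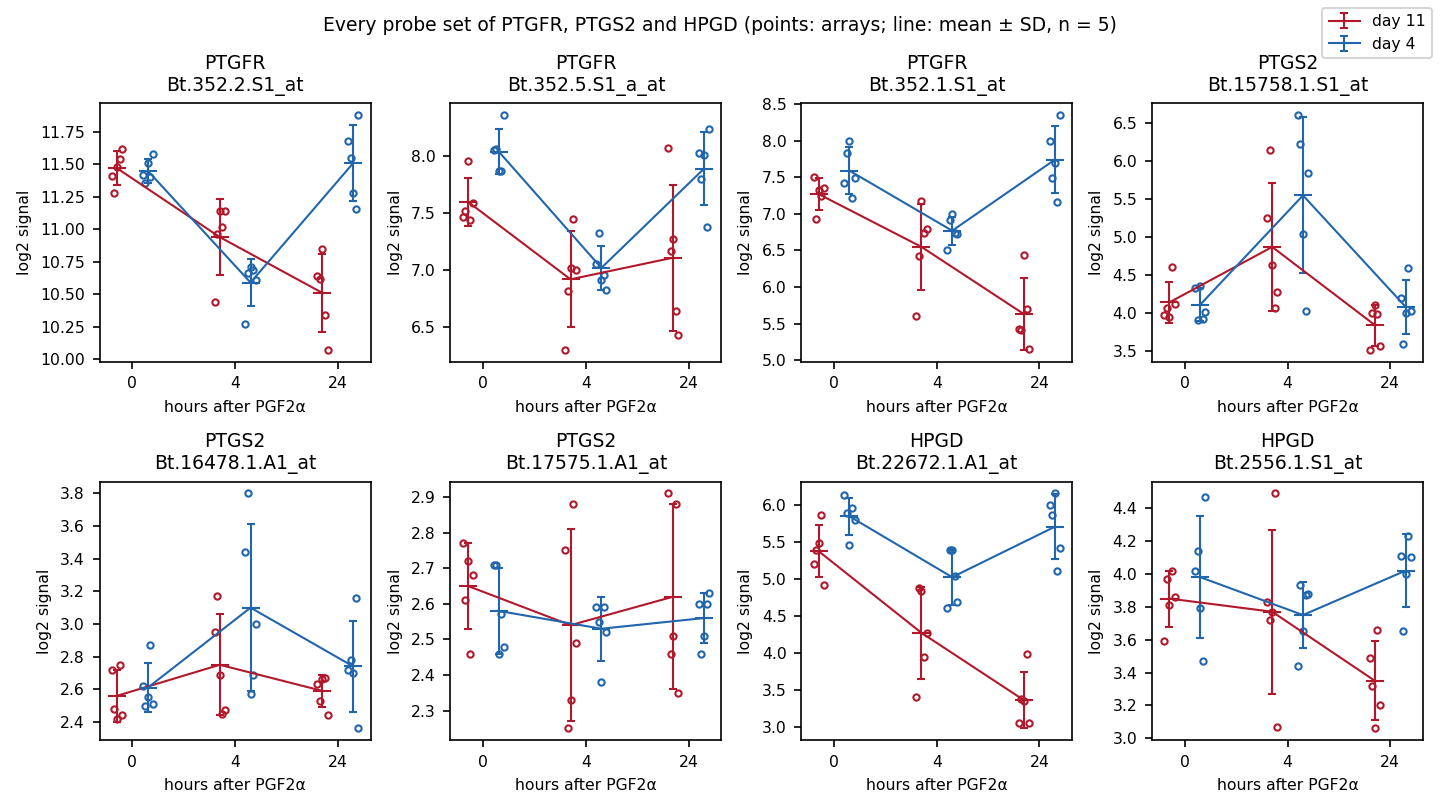
Log2 signal of all probe sets of the genes that have several (PTGFR 3, PTGS2 3, HPGD 2) by hours after PGF2α and day; points are arrays and lines join group means with SD, n = 5. The second brightest PTGFR probe set has a mean of 7.11 on day 11 at 24 h, against 6.92 at 4 h, whereas the other PTGFR probe sets are lower at 24 h than at 4 h.

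Between 24 h and 4 h, 4 of the 7 genes were called on each day. On day 11 PTGFR, PTGS2, HPGD and SLCO2A1 were lower at 24 h, against a background of 30.6% of all genes. On day 4 PTGFR was higher and PTGS2, PTGES and PTGIS were lower at 24 h, against a background of 20.0%. HPGD differed by -0.90 ± 0.25 on day 11 (adjusted p = 0.00717) and by 0.69 ± 0.25 on day 4 (adjusted p = 0.0597). The day 4 value was called under 8 alternatives, among them without day 4, 24 h replicate 4 (adjusted p = 0.0297), without day 4, 4 h replicate 2 (adjusted p = 0.0486) and without day 4, 4 h replicate 3 (adjusted p = 0.0472). PTGER4 differed by 0.47 ± 0.24 on day 11 (adjusted p = 0.171) and by -0.69 ± 0.24 on day 4 (adjusted p = 0.0513). The day 4 value of PTGER4 was called under 9 of 18 alternatives (adjusted p down to 0.0159). Among them were quantile normalization, array weights and leaving out replicate 3 or 4 at 24 h, or replicate 4 or 5 at 4 h.

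A wider list of 76 prostaglandin and related lipid genes outside the 7 had 37 measured members. Of these, 5 were called at 4 h on day 11 (2 higher, 3 lower), where 23.2% of all genes were, and 1 on day 4 (higher), where 5.28% were. At 24 h 15 were called on day 11 (6 higher, 9 lower), where 37.9% of all genes were, and 3 on day 4 (1 higher, 2 lower), where 7.76% were. The median difference of the list at 24 h on day 11 was -0.06, against -0.01 for all genes. In the interactions 1 was called at 4 h (lower on day 11), against a background of 1.40%, and 12 at 24 h (4 higher, 8 lower on day 11), against 29.8%.

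Among enzymes that release fatty acids from phospholipids, PLA2G12A, a secreted phospholipase, fell at 24 h on day 11, with 7.92, 8.07, 7.74, 8.26 and 8.03, against 9.07, 9.41, 9.37, 9.20 and 9.32 at 0 h. No arrays overlapped, and a second probe set fell too, by 1.77 on the log2 scale against 1.27 in the first. On day 4 it rose at 24 h by 0.46, which was not called without any of 4 single arrays, among them day 4, 24 h replicate 4 (adjusted p = 0.0668), while its second probe set rose by 0.70. PLA2G7, which inactivates platelet-activating factor and is abundant in macrophages, rose at 4 h on day 11, with 7.67, 9.22, 9.34, 9.03 and 9.80, against 6.70, 6.81, 6.49, 5.94 and 7.60 at 0 h. All 5 treated arrays of PLA2G7 exceeded every control.

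Of the other enzymes, AKR1B1, an aldo-keto reductase with prostaglandin F synthase activity, rose at 24 h on day 11 to 10.20, 10.03, 10.04, 10.75 and 9.75, against 9.01, 9.16, 9.34, 9.32 and 9.26 at 0 h (0.93 ± 0.14, adjusted p = 6.7e-06). The groups did not overlap. LTA4H, which makes leukotriene B4, fell on day 11 by 0.59 at 4 h and by 0.85 at 24 h. CBR4, a carbonyl reductase, differed by -0.36 at 4 h on day 11 (adjusted p = 0.0268), a call lost without any of 4 single arrays, among them day 11, 4 h replicate 4 (adjusted p = 0.113). PRXL2B, which has prostaglandin F synthase activity, had a 24 h interaction of -1.14 (adjusted p = 9.71e-07). The constitutive cyclooxygenase PTGS1 was higher at 0 h on day 11 (5.33 ± 0.19, SD, n = 5) than on day 4 (4.63 ± 0.25). At 24 h on day 11 it averaged 4.83 ± 0.14 and had fallen, with a difference of -0.50 ± 0.14 (SE, adjusted p = 0.00696). The other probe set of PTGS1 was called in neither, with adjusted p = 0.421 between the days at 0 h and 0.999 at 24 h on day 11.

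Other carriers of the same family as SLCO2A1 were measured too. SLCO2B1, an organic anion carrier, rose at 4 h on day 4 by 1.68 ± 0.28 (adjusted p = 0.000317), to 6.27, 6.58, 7.72, 8.31 and 7.23, against 5.68, 5.67, 5.33, 5.11 and 5.91 at 0 h. On day 11 its signal was 5.69, 6.34, 6.21, 6.68 and 5.99 at 4 h, against 6.67, 7.20, 6.63, 6.67 and 6.37 at 0 h, and the 4 h interaction was -2.21 (adjusted p = 0.00248). A second probe set of SLCO2B1 was not called in either (0.26, adjusted p = 0.328, and -0.55, adjusted p = 0.142). SLCO4A1, another such carrier, fell at 24 h on day 11 by 1.33, was lower at 24 h than at 4 h there by -1.83 (adjusted p = 2.67e-05) and had a 24 h interaction of -1.40 (adjusted p = 0.0148), in the direction of SLCO2A1 in each. On day 4 the carriers parted. There SLCO4A1 was lower at 24 h than at 4 h by -0.87 (adjusted p = 0.0454), a call lost under 9 of 18 alternatives. SLCO2A1 differed by 0.18 (adjusted p = 0.573). At 0 h SLCO4A1 was higher on day 11 than on day 4 by 0.96 (adjusted p = 0.0118, and 0.0893 with the compared groups alone). SLCO3A1, which has been reported to carry prostaglandins, was lower on day 11 than on day 4 by -1.77 at 0 h, -1.90 at 4 h and -1.18 at 24 h.

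Between the days, 17 of the 37 listed genes were called at 0 h (10 higher and 7 lower on day 11), 13 at 4 h (6 higher, 7 lower) and 22 at 24 h (11 higher, 11 lower), against backgrounds of 44.5%, 42.8% and 46.2% at these times. At 0 h PLA2G1B, a secreted phospholipase, was higher on day 11 by 1.34, and ALOX15, a lipoxygenase, was lower by -0.89 (adjusted p = 0.0276), a call lost without any of 5 single arrays, among them day 4, 0 h replicate 5 (adjusted p = 0.128). The nuclear receptor PPARG was lower on day 11 by -1.03 at 0 h and by -0.95 at 4 h. At 24 h after PGF2α it rose on day 11, with 5.63, 5.86, 5.97, 5.84 and 5.71, against 4.83, 5.02, 4.93, 4.99 and 4.64 at 0 h. No array overlapped there, and the 24 h interaction of PPARG was 1.50 (adjusted p = 1.23e-05). Both days entered into it, since PPARG on day 4 was lower at 24 h than at 0 h by -0.57 (adjusted p = 0.0305). That day 4 call was lost under 6 of 18 alternatives. PTGDS, a prostaglandin D synthase, was higher on day 11 by 1.02 at 24 h.

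Other prostaglandin E receptors were dim. PTGER2, which like PTGER4 raises cyclic AMP, had group means of 2.63 to 3.03, between the 4.1 and the 10.5 percentile of probe sets. It was lower at 24 h than at 4 h on day 4 by -0.41, and was not called at 4 h or 24 h against 0 h on either day. PTGER3 had group means of 4.08 to 4.24 and was called in none of the comparisons with 0 h or between the days.

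**Figure D4:**
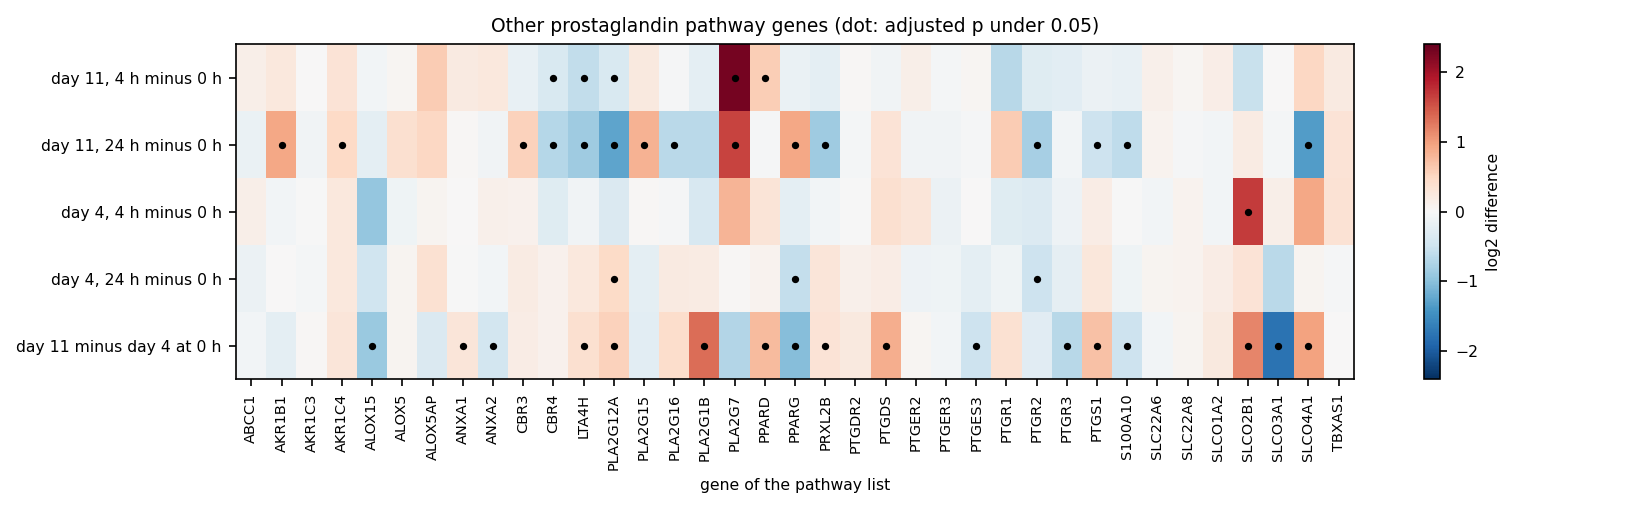
Log2 differences of the 37 measured genes of the wider prostaglandin list (columns) at 4 h and 24 h against 0 h on day 11 and day 4, and of day 11 against day 4 at 0 h (rows), as a colour map from lower (blue) to higher (red); dots mark called differences. At 24 h on day 11 PLA2G7 (1.63), AKR1B1 (0.93) and PPARG (0.92) are higher and SLCO4A1 (-1.33) and PLA2G12A (-1.27) are lower.

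Markers of other cell types moved with the same contrasts. The counts of called markers stand against 23.2% of all genes called at 4 h and 37.9% at 24 h on day 11, and 5.28% and 7.76% at the same times on day 4. In whole tissue, fewer cells of a type and less RNA per cell cannot be told apart. Of 8 luteal cell markers, 7 fell at 24 h on day 11, and the mean signal of the list was 10.80 to 11.56 there, against 12.31 to 12.48 at 0 h, with no overlap. On day 4 the list lay between 12.32 and 12.43 at 24 h, against 12.08 to 12.17 at 0 h. Of 8 macrophage markers, 5 rose at 24 h on day 11, with a mean of 9.70 to 10.47, against 8.13 to 8.87 at 0 h, and on day 4 none was called (6.91 to 8.27, against 7.13 to 7.24). The lists also differed between the days at 0 h, where 44.5% of all genes were called. On day 11, 8 of 12 endothelial markers were higher and 1 lower, and 5 of 8 macrophage markers were higher and 0 lower. Of 8 luteal cell markers, 5 were higher and 2 lower. Of 8 fibroblast markers, 1 was higher and 5 lower. Of 8 smooth muscle and pericyte markers, 2 were higher and 4 lower. The part of all these shifts in the results for PTGFR, PTGER4, PTGES, HPGD and SLCO2A1 was not tested.

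At 4 h, 5 of 9 neutrophil markers rose on day 11 and 2 of 9 on day 4, and the mean of that list was 5.73 to 6.81 on day 11 and 5.57 to 6.40 on day 4, against 5.01 to 5.49 and 5.19 to 5.39 at 0 h. The rise of the list mean was not confined to 4 h, since it was 6.00 to 6.78 at 24 h on day 11. There 3 of the 9 were called higher than at 0 h, where 37.9% of all genes were called in either direction. On day 4 none was called at 24 h (5.19 to 5.90). The least bright neutrophil marker, ELANE, had a mean signal of 3.41 over the 30 arrays, and the brightest, S100A8, one of 8.84. Of 12 endothelial markers, 4 rose and 1 fell at 4 h on each day, and 1 rose and 5 fell at 24 h on day 11. Their mean at 24 h on day 11 was 7.65 to 7.83, against 7.74 to 8.02 at 0 h, so these groups overlapped. Of 8 smooth muscle and pericyte markers, 2 rose at 4 h on day 11 and 1 on day 4, where 23.2% and 5.28% of all genes were called. The mean of this list at 4 h on day 11 was 8.43 to 9.25, against 8.13 to 8.87 at 0 h. On day 4 it was 8.99 to 9.49, against 8.67 to 8.93, with no overlap. The median 4 h difference of the list was -7e-04 on day 11 and 0.49 on day 4, against -0.04 and -0.02 for all genes. In the T and NK cell list 7 of 10 rose at 24 h on day 11. Whether neutrophil or vessel wall cells bear on the 4 h results for PTGS2 and PTGIS was not tested.

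**Figure D5:**
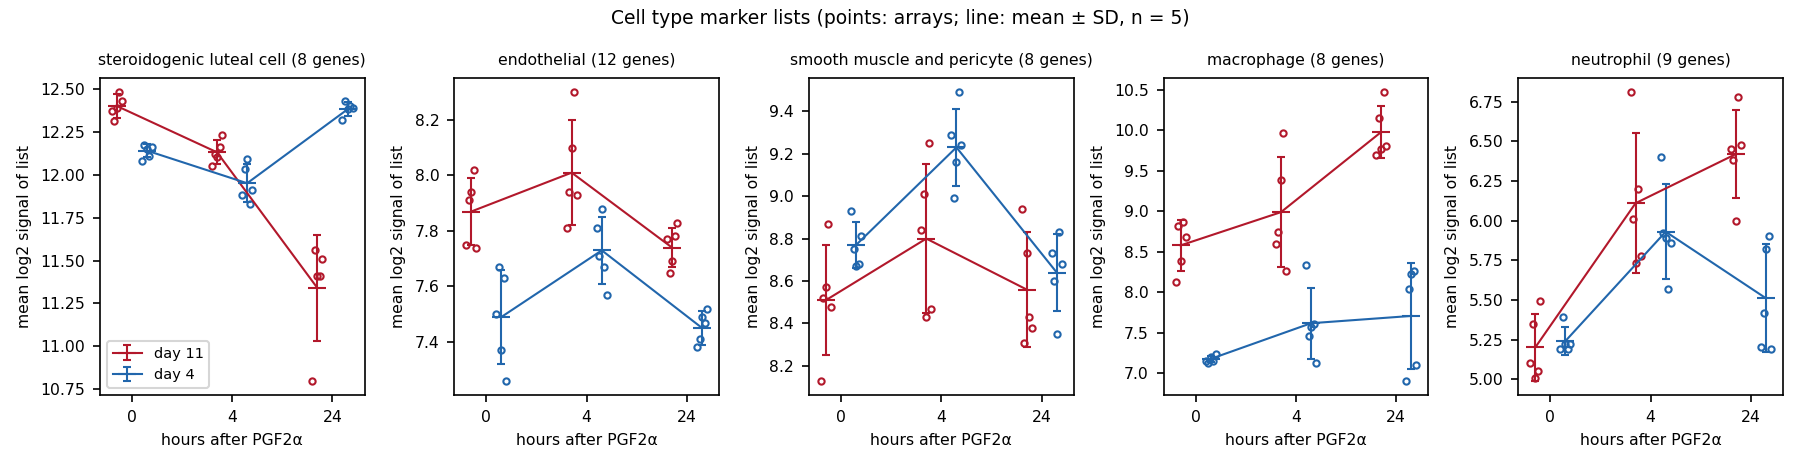
Mean log2 signal of marker lists of luteal cells, macrophages, neutrophils, endothelium and smooth muscle with pericytes on each of the 30 arrays, by day and hours after PGF2α. The luteal list on day 11 at 24 h (10.80 to 11.56) lies below all other groups and the macrophage list there (9.70 to 10.47) lies highest by its group mean.

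The genes whose representative probe sets correlated best with each of the 7 over the 30 arrays are given as a description, since the arrays share the group structure and both members of a pair come from the same RNA. PTGFR was most like PTHLH, parathyroid hormone-like hormone (r = 0.879), LNX2 (0.851) and POLR1E (0.836). PTHLH averaged 10.94 ± 0.21 at 0 h, 9.02 ± 0.25 at 4 h and 7.27 ± 0.63 at 24 h on day 11, and 10.79 ± 0.38, 8.87 ± 0.35 and 10.72 ± 0.45 at the same times on day 4 (SD, n = 5 each). PTGER4 was most like CD53 (0.946), a leukocyte surface protein, SAMSN1 (0.929) and CD14 (0.927), a monocyte and macrophage coreceptor that is itself on the macrophage list. CD14 averaged 8.34 ± 0.23, 9.61 ± 0.46 and 10.93 ± 0.43 at 0, 4 and 24 h on day 11, and 7.90 ± 0.28, 8.96 ± 0.67 and 8.27 ± 0.47 on day 4.

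PTGS2 was most like RND1 (r = 0.925), NFKBIE (0.833), an inhibitor of NF-κB, and the cytokine IL1B (0.833). IL1B averaged 7.85 ± 1.54 at 4 h against 4.16 ± 0.28 at 0 h on day 11, and 8.22 ± 1.51 against 4.53 ± 0.36 on day 4 (SD, n = 5 each), and like PTGS2 its spread was widest at 4 h. PTGES was most like LSR (0.906), UGDH (0.865) and TIMM8A (0.856), and PTGIS like ZC3H14 (0.835), the smooth muscle gene CNN1 (0.814), which is on the smooth muscle list, and SLC12A4 (0.760). HPGD was most like the cyclin CCND3 (0.930), NDUFA9 (0.923), a subunit of mitochondrial complex I, and IBA57 (0.912). SLCO2A1 was most like PYGM (0.923), RAMP3 (0.917), a receptor activity-modifying protein, and ADAM2 (0.892), and PYGM and ADAM2 were dim, with means of 3.39 and 3.34. Within the 7 genes, PTGFR correlated with HPGD at r = 0.724, and PTGER4 with HPGD at -0.795 and with PTGFR at -0.723.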

How the data were processed

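RNA was measured in corpus luteum of 30 heifers on Affymetrix GeneChip Bovine Genome Arrays, 5 in each of 6 groups. Deposited were log2 signals, made with RMA per the submitters' processing notes; its version and the arrays normalized together are not given in the sources used here. The log2 scale was read from the range of the deposited values, which were not centred per probe set. Of 24128 probe sets 112 controls were left out. The platform annotation of 2016 gave 13292 of the 24016 tested exactly 1 symbol, 86 several and 10638 none, and RefSeq entries updated 0 symbols. The probe set with the highest mean represented a gene. Values were fitted in limma 3.58.1 under R 4.3.3, with 1 mean per group, no block and default moderation (24 residual degrees of freedom, 28.2 in all), for 11 contrasts. The test was tried on simulated data. The number of arrays limits the precision.

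The genes and lists were chosen with earlier results of these data known. Named outside the 7 genes were up to 6 called genes of the wider list per contrast with the largest change, the 3 most correlated genes of each of the 7 and fixed markers; PTGS1, PTGER2 and PTGER3 against 0 h were added after their values were seen. The alternatives covered normalization (quantiles or array medians), filtering (without the dimmest 30%), moderation (trended and robust), weighting of arrays, a block for the replicate number, fits of the compared groups alone, stricter calls (0.01, or 2-fold), averaging a gene's probe sets, and leaving out each array.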

Additional observations from a re-analysis of the deposited data

Results flagged for a closer look

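In 4 of 42 groups of 5 arrays, 1 array stood apart from the others by Dixon's test, which chance alone would give in about 1 in 20 groups. PTGFR read 10.44 in day 11, 4 h replicate 1 (the others 10.96 to 11.14) and 10.27 in day 4, 4 h replicate 1 (the others 10.61 to 10.71). PTGS2 read 4.61 in day 11, 0 h replicate 4 (the others 3.94 to 4.12), and PTGIS read 10.67 in day 4, 0 h replicate 3 (the others 10.35 to 10.43).

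The response to PGF2α differed between the days by the interaction test in limma. At 4 h the response of SLCO2B1 was lower on day 11 by -2.21 (adjusted p = 0.00248), but its second probe set was not called. At 24 h the response was lower on day 11 for PTGFR by -1.02, HPGD by -1.87, SLCO2A1 by -1.95, PLA2G12A by -1.73 (adjusted p = 1.14e-08), SLCO4A1 by -1.40, PRXL2B by -1.14 and LTA4H by -1.11 (adjusted p = 4.61e-06). It was higher on day 11 for PTGER4 by 1.26, PLA2G7 by 1.59 (adjusted p = 0.0103) and PPARG by 1.50. The second brightest PTGFR probe set and the dimmer HPGD probe set were not called in this 24 h interaction (adjusted p = 0.526 and 0.15).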

How the results depend on the processing

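Each gene was tested in 11 contrasts, giving 77 results for the 7 genes, of which 34 were called. Of these, 26 kept their call under every alternative other than the stricter p and the minimum fold, among them the 24 h falls of PTGFR, HPGD and SLCO2A1 on day 11, the differences of PTGES between the days and all 4 called 24 h interactions; 8 lost it under at least 1, and 12 of the 43 not called gained it. No alternative used another probe set alone. In limma the second brightest PTGFR probe set was not called for the 24 h fall on day 11 (adjusted p = 0.105). It was not called for the 24 h interaction either (adjusted p = 0.526), whereas the dimmest was called for both. The dimmer HPGD probe set was not called for the 24 h interaction (adjusted p = 0.15). The number of genes called at 24 h on day 4 was 1 with array weights and 0 to 1 with 1 array left out. At 4 h on day 11 it was 2 with a minimum change of 2-fold. For day 11 against day 4 at 4 h it was 2 with the compared groups alone, with an adjusted p under 0.01 and with 2-fold, and 2 to 5 with 1 array left out, the lowest without day 11, 4 h replicate 4. For 24 h against 4 h it was 2 on day 4 with 2-fold, and on day 11 2 with an adjusted p under 0.01, with 2-fold and with the mean of all probe sets, and 2 to 4 with 1 array left out, the lowest without day 11, 24 h replicate 5. The cause was not tested.

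Only small differences that were not called changed sign. With the mean of all probe sets PTGFR at 0 h between the days was -0.249 and PTGS2 at 24 h on day 4 was 0.029. PTGS2 at 0 h between the days was -0.019 with quantile normalization and -0.013 with array weights, PTGIS at 4 h between the days was 0.003 with array weights, and SLCO2A1 at 4 h on day 4 was -0.001 with array medians subtracted. With 1 array left out, the ranges were -0.036 to 0.144 for PTGFR at 24 h on day 4, -0.026 to 0.060 for PTGFR at 0 h between the days, -0.071 to 0.224 for the 4 h interaction of PTGER4, -0.149 to 0.102 for PTGS2 at 24 h on day 4, -0.083 to 0.097 for PTGS2 at 0 h between the days, -0.205 to 0.040 for PTGES at 24 h on day 11, -0.300 to 0.082 for PTGIS at 4 h between the days, -0.252 to 0.013 for HPGD at 24 h on day 4 and -0.067 to 0.120 for SLCO2A1 at 4 h on day 4.

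Deviations from the group means correlated at -0.195 to 0.263 over 75 pairs of same-numbered arrays from different groups (median 0.0485). Between differently numbered arrays of different groups the median was -0.0149. These correlations alone cannot settle whether replicate numbers mark a pairing. With the replicate number as a block, 5 of the 7 genes were called at 4 h on day 11 (SLCO2A1, adjusted p = 0.0441, in addition), 4 on day 4 (HPGD, adjusted p = 0.04, in addition), 3 between the days at 0 h (PTGIS, adjusted p = 0.0413, in addition) and 5 for 24 h against 4 h on day 4 (HPGD, adjusted p = 0.0455, in addition), and all 24 h counts against 0 h were as before. The share of all genes called was not computed under this or any other alternative. Whether calls rose in the same way over all genes is therefore not known. Dim signals limit PTGS2, PTGER2 and the second probe set of HPGD. They also limit the brightest probe set of HPGD on day 11 at 24 h, where its mean stood at the 14.7 percentile. PTGS2 was not tested without the dimmest 30% of probe sets, since it is among them.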

Other observations

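In the wider list, PPARD was higher at 4 h on day 11 by 0.59 (adjusted p = 0.000825) and lower at 24 h than at 4 h by -0.63, but its other probe sets were not called and the mean of its probe sets gave adjusted p = 0.0722 for the rise. PTGR2, a prostaglandin reductase, differed by -0.49 at 24 h on day 4 (adjusted p = 0.022), a call lost without any of 6 single arrays (adjusted p up to 0.11), and its other probe set fell there too, by 0.58 (adjusted p = 0.0167). CBR3, a carbonyl reductase, was higher at 24 h than at 4 h on day 11 by 0.72.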
